A study of Mus musculus with 20 samples.

Results

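The genes described here are 7 matrix metalloproteinases (Mmp2, Mmp8, Mmp9, Mmp12, Mmp13, Mmp14 and Mmp19) and 3 of their tissue inhibitors (Timp1, Timp2 and Timp3), in mouse liver. They are 10 of the 55401 gene IDs of the deposited count table, found by matching Ensembl IDs to mm10 gene symbols, and all 10 were found. Liver RNA came from C57BL/6 mice with the genotype label WT, fed either standard rodent chow (libraries named chow 1 to chow 10) or a diet high in fat, here HFD (libraries named HFD 1 to HFD 10). The HFD held 60% fat, 20% carbohydrate and 20% protein and was given for 12 weeks; the time on chow, age and sex are not given in the labels used here. The design text names 3 groups on the HFD, whereas the 10 HFD samples carry the same labels and were treated as 1 group. Since no label ties each sample to its own mouse, a p-value here reflects sample-to-sample spread, which may be partly technical. No batch is named, so diet and any handling that went with it cannot be told apart.

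Matrix metalloproteinases are zinc-dependent enzymes that cut collagens, elastin and other proteins of the extracellular matrix. Most are made as inactive proenzymes, and TIMPs block them by binding the active site, so matrix turnover depends on the level of both families. In the liver, stellate cells, macrophages and neutrophils are known sources of particular members, and the balance of metalloproteinases and TIMPs is studied in the deposition and resolution of scar matrix.

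Sequencing depth was 34727227 to 49065587 counts per chow library. HFD libraries held 20111896 to 90033879 counts, and a pair of them stood apart. In HFD 1 and HFD 2, 75.6% and 94.4% of counts came from the mitochondrial genome, against 1.34% to 3.10% in the other 18 libraries. After scaling by the trimmed mean of M values (TMM), their effective library sizes were 3464113 and 5729644, against 31330919 to 121186499 elsewhere. A count of 0 allows up to 0.866 CPM (3 counts) in HFD 1 and 0.524 CPM in HFD 2, and at most 0.0564 CPM in HFD 3 to HFD 10. CPM here is the count divided by this effective size, on the usual CPM scale, and floors cover counting error only. They take counts as independent, whereas 72.4% to 89.6% of the values from 1 to 50 in each library were even; if 1 fragment gave a pair of counts, the floors would be higher. Of the hepatocyte markers Alb, Ttr, Apoa1 and Tat none was at 0, and their summed level was 63940 to 104000 CPM in chow and 15660 to 76090 CPM in HFD.

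Mmp13, Mmp12 and Mmp8 lie within one metalloproteinase cluster on chromosome 9, and Timp1 is on the X chromosome. Their 250 bases upstream of a RefSeq transcript start (GRCm38.p6) are shown because these 4 genes had low counts in chow and, in HFD, their own pattern across libraries. Capitals mark TGAGTCA or TGACTCA, the binding letters of the AP-1 factors (the pair are reverse complements), and AGGAAG or its complement CTTCCT, letters bound by ETS factors.
Mmp12, chr9:7347124-7347373, plus strand: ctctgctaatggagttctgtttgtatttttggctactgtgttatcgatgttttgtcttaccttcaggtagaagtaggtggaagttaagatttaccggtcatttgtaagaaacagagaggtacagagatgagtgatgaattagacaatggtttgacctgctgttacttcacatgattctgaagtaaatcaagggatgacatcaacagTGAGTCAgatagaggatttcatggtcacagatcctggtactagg
Mmp13, chr9:7272264-7272513, plus strand: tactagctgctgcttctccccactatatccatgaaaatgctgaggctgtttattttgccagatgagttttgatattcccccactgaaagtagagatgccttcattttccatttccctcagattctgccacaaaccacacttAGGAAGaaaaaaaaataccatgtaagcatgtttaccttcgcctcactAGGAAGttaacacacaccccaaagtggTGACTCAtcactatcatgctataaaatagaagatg
Mmp8, chr9:7558179-7558428, plus strand: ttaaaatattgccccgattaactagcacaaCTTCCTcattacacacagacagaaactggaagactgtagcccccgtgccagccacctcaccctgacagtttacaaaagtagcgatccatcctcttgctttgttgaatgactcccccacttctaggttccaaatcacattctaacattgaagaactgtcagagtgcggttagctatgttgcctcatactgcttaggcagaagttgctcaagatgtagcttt
Timp1, chrX:20869916-20870165, plus strand: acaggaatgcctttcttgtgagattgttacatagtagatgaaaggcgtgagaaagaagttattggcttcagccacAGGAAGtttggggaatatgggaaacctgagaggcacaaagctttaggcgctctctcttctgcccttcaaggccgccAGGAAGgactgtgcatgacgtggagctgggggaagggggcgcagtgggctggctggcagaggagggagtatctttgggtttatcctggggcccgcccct
The AP-1 letters began 44 bases before the Mmp12 start and 35 bases before the Mmp13 start. Sequences were found for 7 of the 10 members, with 8 starts in all because Mmp12 has a second start upstream, whose window held no AP-1 letters. AP-1 letters stood in 2 of those 8 windows and in 4.46% of 32851 mouse windows of this length. ETS letters stood in 6 of the 8 and in 29.5% of all windows. TATAAA, searched on the gene's strand only, stood in 1 of the 8 (Mmp13) and in 7.59% of all. No motif overlapped another in the 4 windows printed, and a match describes letters, not binding.

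Mmp12, which encodes the elastin-cutting macrophage metalloelastase, was higher in every HFD library than in any chow library. It had between 0.163 and 0.816 CPM in chow, with a median of 0.317 CPM. In HFD the lowest value was 1.17 CPM, the median 31.6 CPM and the highest 50.4 CPM. HFD 10 was the low library, and the other 9 lay between 19.9 and 50.4 CPM. The mean rose from 0.361 ± 0.182 (SD, n = 10) to 29.9 ± 12.8 CPM (n = 10), 82.9-fold. The log2 change was 6.36 (SE 0.463, adjusted p = 4.29e-09, edgeR quasi-likelihood test). In bulk liver, more cells of a type cannot be told apart from more RNA per cell.

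In HFD 5 members passed the test (Mmp12, Mmp13, Mmp9, Mmp14 and Timp2), each of them higher. Across all 14542 genes tested 20.0% were called, 13.0% higher and 7.05% lower, so 5 of 8 tested members stands beside 13.0%. Mmp8 and Timp1 did not reach the count minimum in 10 libraries and were not tested in that fit. Mmp13 could not pass the minimum through HFD alone, as HFD 1, HFD 2 and HFD 10 had 0, 0 and 8 counts. It passed through libraries of both diets, chow 4 with 40 counts among them. In limma fits on log2 FPKM, Mmp12 was the 1 member called. Mmp12 was the 1 tested member whose groups did not overlap, against 2.39% of genes with every HFD library above every chow library. Without HFD 1 and HFD 2 all 10 members could be tested and 8 were higher, Mmp2, Mmp8 and Timp1 being added, where 17.9% of genes were called higher and 10.4% lower. Mmp8 and Timp1 entered that fit through their HFD counts and had to be higher to be tested, so the 8 give no support beside that share.

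**Figure D1:**
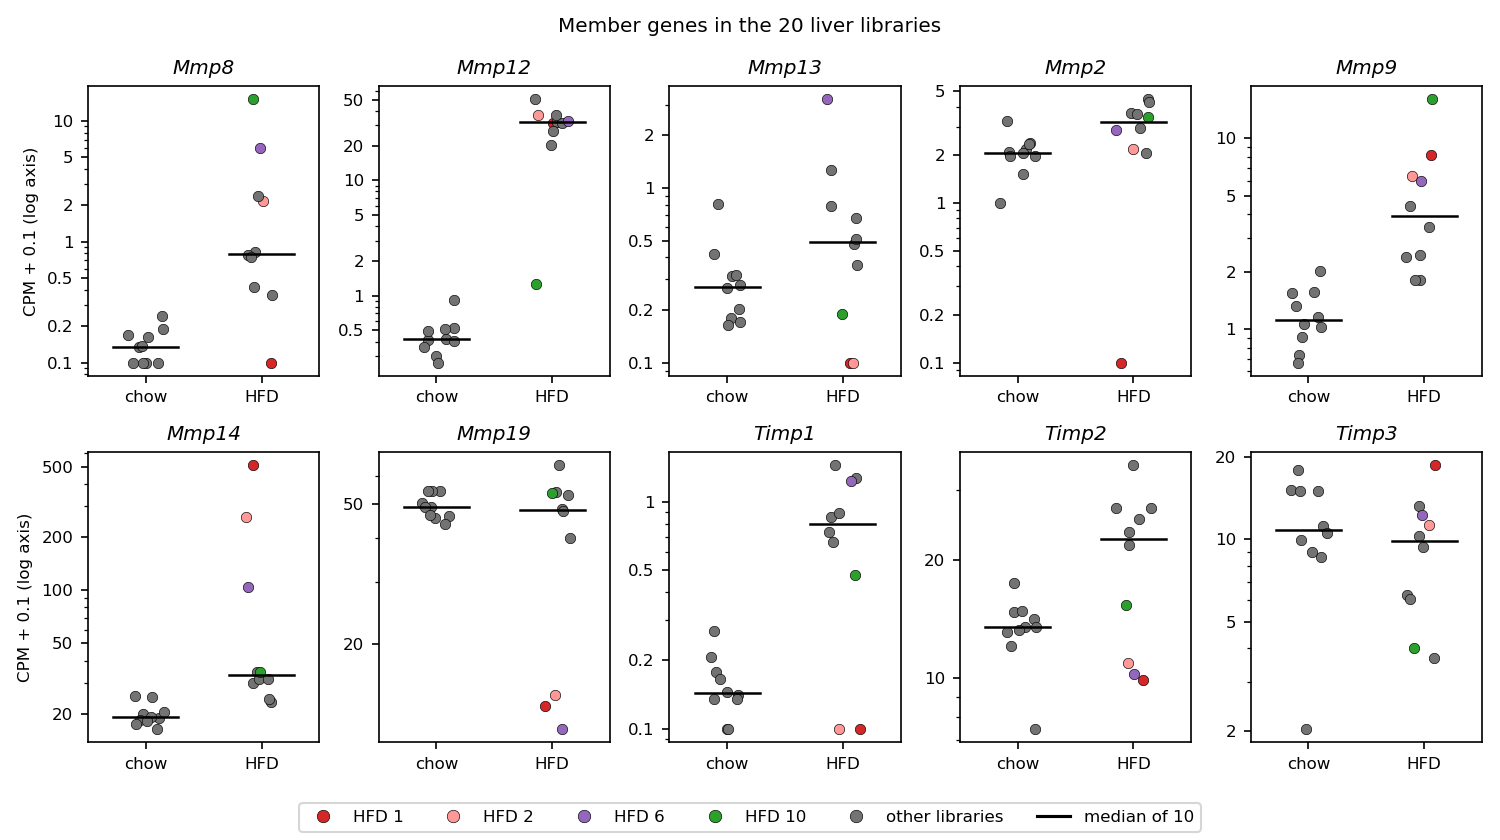
Each point is 1 library, on a log axis of CPM with 0.1 added, with a bar at the median of 10 libraries per diet. Mmp12 in HFD 10 (1.17 CPM) lies below the other 9 HFD libraries, and Mmp14 in HFD 1 and HFD 2 (512 and 262 CPM) above all other libraries.

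Mmp8 and Mmp13 are collagenases that cut fibrillar collagen. Mmp8, stored in neutrophil granules, had 22 counts over the 10 chow libraries and 2170 over the 10 HFD libraries. Its level was 0 to 0.142 CPM in chow. In HFD it was 0 in HFD 1, with a median of 0.694 CPM, 5.89 CPM in HFD 6 and 15.04 CPM in HFD 10. In HFD 2 to HFD 10 it was above the highest chow library, and HFD 10 alone gave 1358 of the counts. Without HFD 1 and HFD 2 the log2 change was 6.23 (SE 0.923, edgeR adjusted p = 4.01e-05). With no count minimum and all libraries it was 6.01 (SE 0.955, edgeR adjusted p = 0.000175), in a fit that called 8.68% of genes higher. Leaving out HFD 6 and HFD 10 as well as HFD 1 and HFD 2 gave 4.24 (SE 0.607, edgeR adjusted p = 2.29e-05).

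Mmp13, the main interstitial collagenase of rodents, was low in both diets. It ranged from 0.0651 to 0.710 CPM in chow, with a median of 0.173 CPM. HFD values ran from 0 in HFD 1 and HFD 2, whose floors are 0.866 and 0.524 CPM, to 3.12 CPM in HFD 6, with a median of 0.392 CPM. The groups overlapped, with 2 of 10 HFD libraries (HFD 5 and HFD 6) above the highest chow library. The log2 change was 1.79 (SE 0.602, edgeR adjusted p = 0.0394). It was 1.09 without HFD 6 (edgeR adjusted p = 0.137), and the call was also lost without any of chow 1, 2, 3, 5, 6, 7, 8 or 10 or HFD 5.

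The gelatinases Mmp9 and Mmp2 cut denatured collagen and basement membrane collagen. Mmp9, made mainly by neutrophils and macrophages, was between 0.568 and 1.92 CPM in chow, with a median of 1.01 CPM. HFD libraries ran from 1.70 CPM through a median of 3.84 CPM to 15.95 CPM in HFD 10. In 8 of 10 HFD libraries it lay above the highest chow library, and HFD 1, HFD 2 and HFD 6 were at 8.08, 6.28 and 5.86 CPM. Its mean rose 4.72-fold, from 1.10 ± 0.419 to 5.19 ± 4.35 CPM (n = 10 each; log2 change 2.21, SE 0.386, edgeR adjusted p = 0.000254). Leaving out HFD 1, 2, 6 and 10 together gave a log2 change of 1.28 (edgeR adjusted p = 0.000705).

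Mmp2, a gelatinase made by stellate cells and fibroblasts, averaged 1.98 ± 0.584 CPM on chow against 2.87 ± 1.28 CPM on HFD. Chow values were 0.897 to 3.16 CPM and HFD values 0 to 4.37 CPM. The 0 was that of HFD 1, whose floor of 0.866 CPM lies just under the lowest chow library. The other chow libraries were at 1.42 CPM or more. That floor would be higher if 1 fragment gave a pair of counts. The difference did not pass the edgeR test with all libraries (log2 change 0.58, SE 0.301, edgeR adjusted p = 0.178). It did pass in DESeq2 on the same libraries (log2 change 0.65, SE 0.234, DESeq2 adjusted p = 0.0242). Without HFD 1 the log2 change was 0.72 (edgeR adjusted p = 0.0116), and without HFD 1 and HFD 2 it was 0.78 (SE 0.191, edgeR adjusted p = 0.00472), with 5 of the 8 libraries above the highest chow library.

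Mmp14 is a membrane-anchored enzyme that activates the Mmp2 proenzyme at the cell surface. Chow libraries lay between 16.3 and 25.1 CPM, with a median of 19.0 CPM. HFD libraries had a median of 32.9 CPM and fell into unequal levels: HFD 1 had 512 CPM, HFD 2 had 262 CPM, HFD 6 had 105 CPM and the other 7 lay between 23.3 and 34.4 CPM. All HFD libraries but HFD 4 and HFD 5 exceeded the highest chow library, and these were at 23.3 and 24.2 CPM. The log2 change was 2.44 (SE 0.544, edgeR adjusted p = 0.00277). It was 1.69 without HFD 1, 1.02 without HFD 1 and HFD 2 (SE 0.231, edgeR adjusted p = 0.00261) and 0.59 without HFD 1, 2, 6 and 10 (SE 0.103, edgeR adjusted p = 0.000204), and it passed the test in each of these fits. With library totals alone it was 1.22 (edgeR adjusted p = 0.0319). The change did not pass with the replicate block (edgeR adjusted p = 0.052) or in the FPKM fits (limma adjusted p = 0.0683 and 0.147). In HFD 1 and HFD 2 the Mmp14 counts were 1773 and 1499, beside 46 and 82 counts of Mmp19 and 0 of Timp1. These 2 libraries held 20111896 and 54320148 counts in all, where chow 1 had 1392 Mmp14 counts of 45848820. Their Mmp14 CPM thus rest on TMM factors of 0.1725 and 0.1055.

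Mmp19, a secreted enzyme of basement membrane turnover, was the most abundant member per length in chow. It ranged from 43.7 to 54.1 CPM in chow, with a median of 48.8 CPM. HFD 1, HFD 2 and HFD 6 were low at 13.3, 14.3 and 11.5 CPM, and the remaining 7 HFD libraries ran from 39.8 to 64.0 CPM. Its log2 change of −0.29 did not pass the test (SE 0.257, edgeR adjusted p = 0.449) and was −0.05 without HFD 1 and HFD 2. The same 3 libraries had the lowest summed hepatocyte markers of the HFD group, at 18890, 15660 and 34330 CPM. HFD 9 and HFD 8 came next at 40210 and 43460 CPM, also below the lowest chow library (63940 CPM). Their Mmp19 was 63.96 and 52.85 CPM. The part of hepatocyte RNA in the Mmp19 level was not tested. Exons of Mmp19 share 789 bases with Tmem198b on the other strand, a gene with 1.19 ± 0.212 CPM on chow and 0.917 ± 0.533 CPM on HFD.

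**Figure D2:**
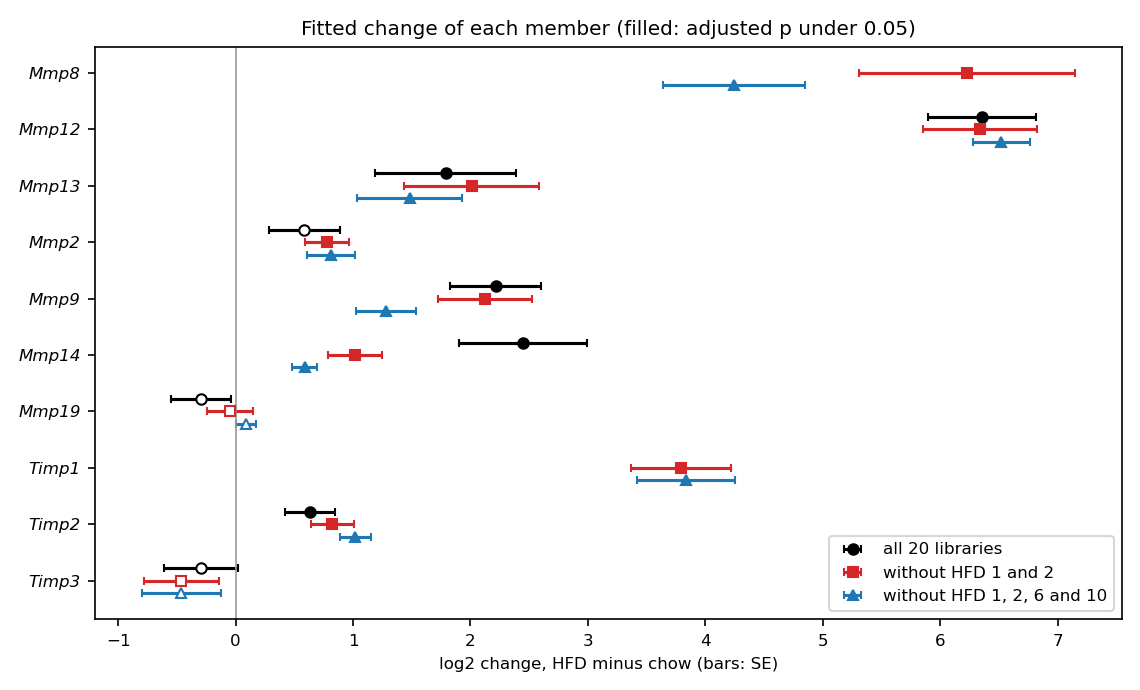
Points give the fitted log2 change (HFD minus chow) with its SE, filled where the adjusted p was under 0.05; Mmp8 and Timp1 have no point for all 20 libraries because they were not tested there. Mmp12 stays between 6.34 and 6.52 in the 3 fits, whereas Mmp14 goes from 2.44 to 0.59.

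Timp1, the inducible inhibitor that is used as a marker of liver scarring, was close to the floor in chow and detected in 8 of 10 HFD libraries. It had 32 counts over the chow libraries, 0 in chow 5 and chow 9, and at most 0.169 CPM. HFD 3 to HFD 10 had 34 to 86 counts each, or 0.377 to 1.34 CPM, all above the highest chow library. HFD 1 and HFD 2 had 0 counts, with floors of 0.866 and 0.524 CPM. A level like that of HFD 10, the lowest of HFD 3 to HFD 10, would have been below detection in either. The levels of HFD 3 to HFD 9 (0.561 to 1.34 CPM) were above the floor of HFD 2. Those of HFD 3, HFD 4 and HFD 6 (1.34, 1.17 and 1.14 CPM) were above both floors. The mean was 0.0578 ± 0.0510 CPM in chow and 0.846 ± 0.336 CPM in HFD 3 to HFD 10 (n = 8), 14.7-fold higher. Without HFD 1 and HFD 2 the log2 change was 3.79 (SE 0.425, edgeR adjusted p = 1.37e-06), and with no count minimum and all libraries 3.56 (SE 0.588, edgeR adjusted p = 0.00015). Timp1 (chromosome X, 20870166 to 20874735, plus strand) lies inside an intron of Syn1 on the other strand and shares no exon base with it. Syn1 was also higher, from 0.423 ± 0.183 to 1.88 ± 0.864 CPM (log2 change 2.19, SE 0.344, edgeR adjusted p = 7.93e-05). How reads were assigned by strand is not given in the sources used here, and reads of Syn1 RNA within Timp1 were not tested.

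Timp2, an inhibitor that also takes part in the activation of Mmp2 by Mmp14, was 7.36 to 17.3 CPM in chow, with a median of 13.4 CPM. In HFD the lowest value was 9.82 CPM, the median 22.5 CPM and the highest 34.5 CPM (HFD 8). HFD 1, 2, 6 and 10 lay within the chow range and the other 6 above it. The mean rose 1.54-fold, with a log2 change of 0.63 (SE 0.213, edgeR adjusted p = 0.0406), and was 0.82 without HFD 1 and HFD 2 (SE 0.184, edgeR adjusted p = 0.00228). With all libraries the call was close to the threshold: it was lost on leaving out any of chow 1, 2, 3, 4, 5, 6, 8, 9 or 10 or HFD 3, 4, 5, 7, 8 or 9, with an adjusted p of up to 0.0878.

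Timp3, a matrix-bound inhibitor that also blocks ADAM proteases, averaged 11.3 ± 4.54 CPM on chow and 9.40 ± 4.64 CPM on HFD. Chow 2 was the lowest library of all at 1.93 CPM, and HFD values ran from 3.59 to 18.5 CPM. The groups overlapped and the difference did not pass the test (log2 change −0.29, SE 0.316, edgeR adjusted p = 0.548). Chow 2 also held the lowest summed level of endothelial markers, 63.0 CPM, where the other chow libraries held 151.8 to 226.5 CPM. It was the lowest chow library for stellate (105.5 CPM), myofibroblast (17.9 CPM), macrophage (78.1 CPM) and Kupffer cell markers (264 CPM) too, and the highest for hepatocyte markers (104000 CPM). The part of these cell types in the Timp3 value was not tested. Timp3 shares 1733 exon bases with Syn3 on the other strand, which averaged 0.548 ± 0.215 CPM on chow and 0.381 ± 0.249 CPM on HFD.

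**Figure D3:**
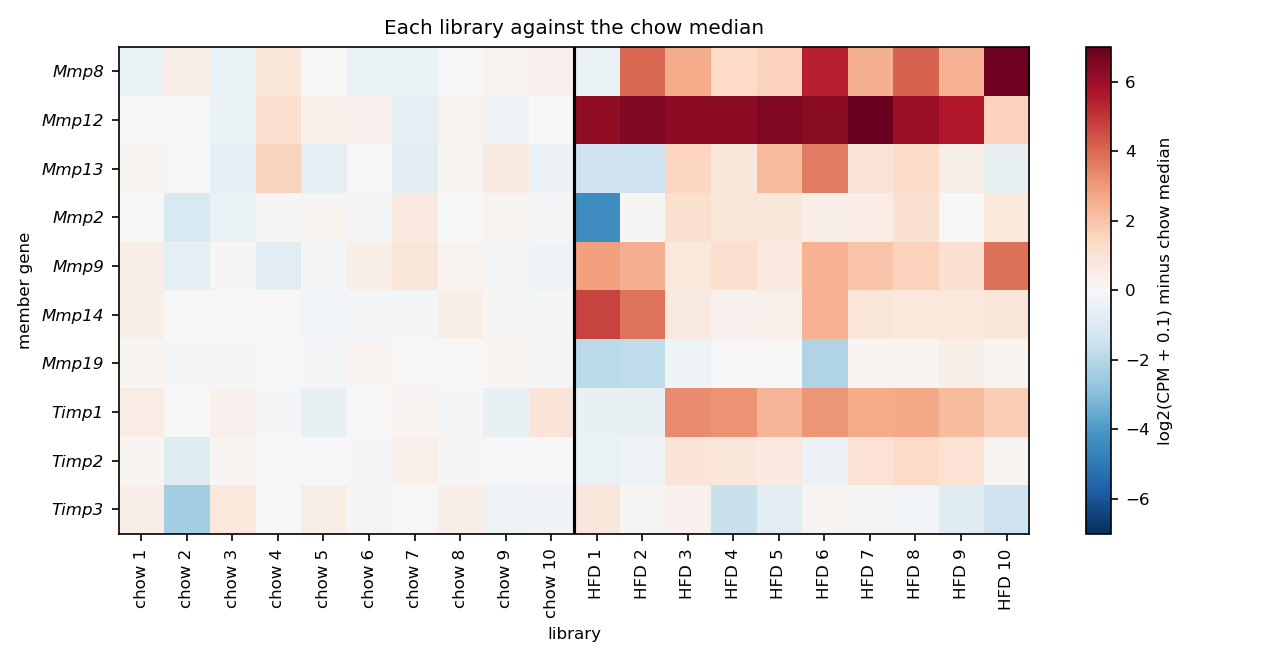
Each cell is log2(CPM + 0.1) of 1 member in 1 library minus the median of the 10 chow libraries, red above and blue below it. HFD 3 to HFD 10 share the Timp1 rise, HFD 1 and HFD 2 carry the highest Mmp14, and HFD 10 the highest Mmp8 and Mmp9 with the lowest HFD level of Mmp12.

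Per length (RPKM, CPM divided by gene length in kilobases), the order of levels in chow was Mmp19 at 13.9 ± 1.10, Timp2 at 3.41 ± 0.649, Mmp14 at 3.32 ± 0.495 and Timp3 at 1.39 ± 0.557 RPKM. Mmp2 followed at 0.586 ± 0.173 and Mmp9 at 0.311 ± 0.119 RPKM, and Mmp13, Timp1, Mmp12 and Mmp8 lay at 0.0793 or below. Neighbours whose means ± SD overlapped were Timp2 with Mmp14, Mmp2 with Mmp9, and each pair of neighbours from Mmp13 down to Mmp8. In HFD 3 to HFD 10 Mmp12, at 4.00 ± 1.96 RPKM, came after Mmp19 at 13.1 ± 4.44, Mmp14 at 6.56 ± 4.49 and Timp2 at 5.90 ± 1.92 RPKM, and every pair of neighbours in the whole order overlapped.

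Mmp14 and Mmp19 made up 91.8% to 96.5% of the summed RPKM of the 7 metalloproteinases in each chow library. In HFD this share was 63.7% to 93.2%, with HFD 1 at the top. Mmp12 took 0.120% to 0.619% of the sum in chow. In HFD it took 0.495% in HFD 10, 4.48% in HFD 1 and 9.00% to 22.9% in the other 8. HFD 10 differed in kind, with 32.8% of its sum from Mmp8, Mmp9 and Mmp13, against 2.37% to 16.7% in the other 9. Timp1 supplied 0% to 4.04% of the summed RPKM of the 3 inhibitors in chow and 7.66% to 23.8% in HFD 3 to HFD 10. The sum of metalloproteinase RPKM divided by the sum of TIMP RPKM was 2.70 to 7.78 in chow, with a median of 3.59, and 2.40 to 6.78 in HFD 3 to HFD 10, with a median of 3.37. It was 20.1 in HFD 1 and 13.6 in HFD 2, the libraries with the most Mmp14. RNA sums say nothing of active enzyme, since proenzyme activation and inhibition act on protein.

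**Figure D4:**
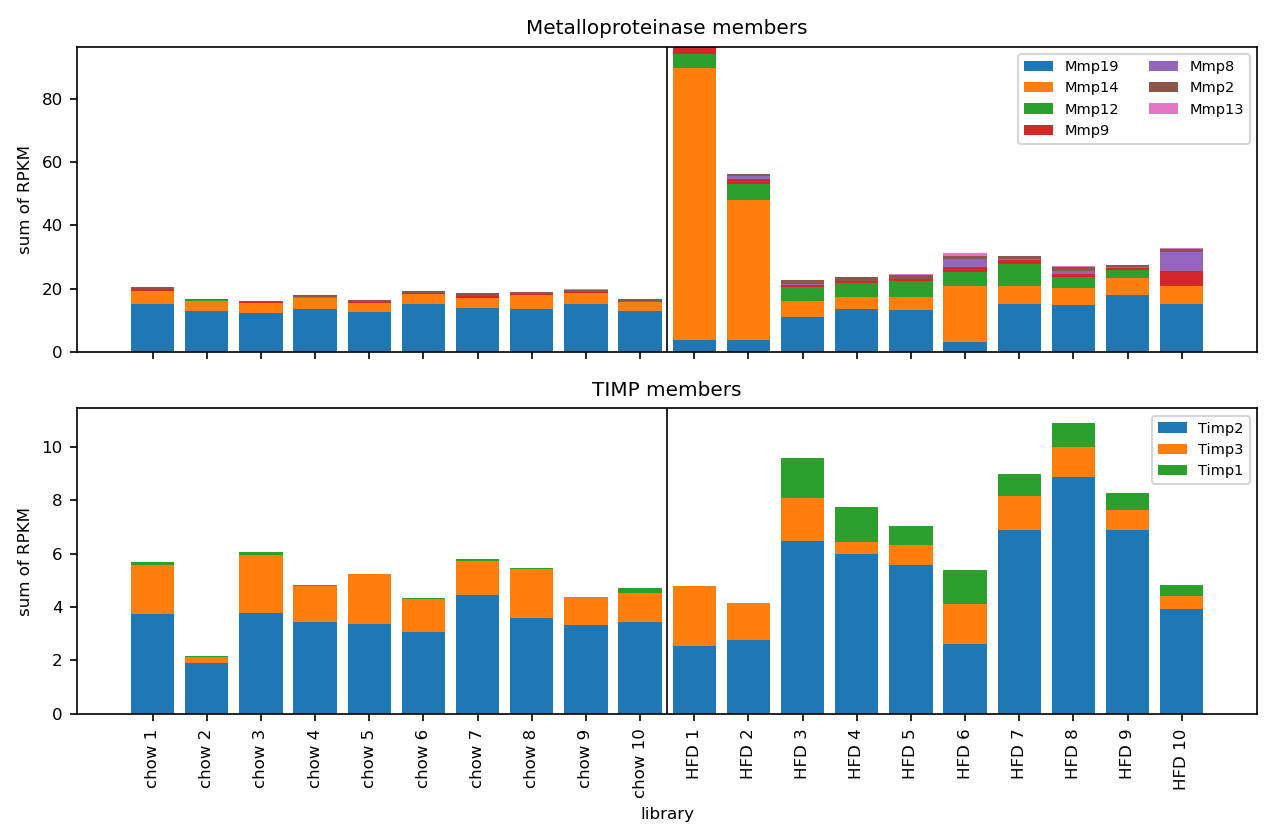
Bars stack the RPKM of the 7 metalloproteinases (upper panel) and the 3 TIMPs (lower panel) in each library, from 0. Mmp19 and Mmp14 fill most of every chow bar, Mmp12 adds a visible band in 9 HFD libraries, and HFD 1 and HFD 2 are dominated by Mmp14.

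Of the other 17 genes of both families 6 could be tested and 2 were higher, beside 13.0% of all genes tested. The median log2 change of the 6 was 0.37, against 0.02 over all genes tested. Mmp27, a little-studied metalloproteinase of the chromosome 9 cluster (7571396 to 7581885), rose from 0.399 ± 0.199 to 3.85 ± 1.46 CPM. Its HFD libraries lay between 1.54 and 6.63 CPM, all above the chow range of 0.142 to 0.702 CPM (log2 change 3.24, SE 0.318, edgeR adjusted p = 2.49e-07). Mmp23 rose from 0.637 ± 0.265 to 1.48 ± 1.00 CPM (log2 change 1.12, edgeR adjusted p = 0.0264), and its call was lost without HFD 8 (edgeR adjusted p = 0.0515). The membrane-type enzyme Mmp15, the most abundant of these 17 per length in chow, was at 33.1 ± 3.32 CPM and in HFD at 21.3 ± 11.2 CPM (edgeR adjusted p = 0.203), and HFD 6 had 1.07 CPM.

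From Mmp13 at 7272514 to Mmp7, which ends at 7699585 (GRCm38), the annotation lists Mmp13, Mmp12, Mmp1b, Mmp3, Mmp1a, Mmp10, Mmp8, Mmp27, Mmp20 and Mmp7. Mmp12, Mmp13 and Mmp27 were called higher, and Mmp8 had the values given above. Mmp1a, Mmp1b and Mmp10 had 0 counts in all 20 libraries and Mmp20 had 2 counts in 1. Mmp3 had 62 counts in the chow libraries together and 126 in the HFD libraries, and Mmp7, the epithelial matrilysin, 254 and 287, with 227 of the chow counts in chow 7. Timp4 had 2 counts in chow and 50 in HFD, and Mmp25 24 and 280.

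Genes that act on or beside these enzymes were described by lists, chosen with earlier results of these data known. Their counts stand beside 13.0% of all tested genes called higher and 7.05% called lower. Genes low in chow, such as Adam8, Adamts4, Adamts12 and Tnf (means of 0.107 to 0.186 CPM), may have passed the count minimum through HFD counts. Such a gene had to be higher to be tested, so it gives no support in the count of its list. In the ADAM and ADAMTS list, proteases that shed cell surface proteins or cut proteoglycans, 9 of 18 tested genes were higher and none lower (median log2 change 0.94). Adam8, a myeloid sheddase, went from 0.143 ± 0.111 to 2.70 ± 4.35 CPM (log2 change 4.26, edgeR adjusted p = 3.95e-05). Adamts4, an aggrecanase, rose by a log2 change of 3.14 (edgeR adjusted p = 0.00152), Adamts12 by 2.06 (edgeR adjusted p = 0.00709) and Adamts9 by 1.21 (edgeR adjusted p = 0.00315).

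In the list of plasmin and metalloproteinase activation and binding, 7 of 13 tested genes were higher and none lower (median log2 change 1.3). Cd44, a hyaluronan receptor that can hold Mmp9 at the cell surface, rose from 11.1 ± 1.94 to 40.8 ± 7.5 CPM (edgeR adjusted p = 2.45e-09). Cd63, a tetraspanin that binds Timp1 in human cells, rose from 2.63 ± 0.737 to 20.4 ± 17.9 CPM (edgeR adjusted p = 3.01e-06). Plaur, the urokinase receptor, rose by a log2 change of 3.4 (edgeR adjusted p = 3.79e-05). Lcn2, lipocalin 2, which binds Mmp9 in humans, went from 5.22 ± 3.16 to 504 ± 734 CPM (log2 change 6.59, edgeR adjusted p = 1.52e-06).

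Among 17 tested matrix substrates 5 were higher and none lower (median log2 change 0.60), beside 13.0% of all tested genes called higher. In the fit without HFD 1 and HFD 2, 16 of 18 were higher, where 17.9% of all genes were called higher. The fibrillar collagen Col1a1 rose from 4.09 ± 1.43 to 13.8 ± 11.5 CPM (edgeR adjusted p = 0.00203), Col1a2 from 9.00 ± 2.62 to 20.8 ± 10.5 CPM (edgeR adjusted p = 0.00194) and Col3a1 from 19.5 ± 5.01 to 42.4 ± 19.4 CPM (edgeR adjusted p = 0.00443). Fibrillin Fbn1 rose by a log2 change of 1.18 (edgeR adjusted p = 0.00265).

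The list of lysosomal proteases (cathepsins and legumain), which degrade proteins taken up by cells, and of cystatin inhibitors had 6 of 10 genes higher and none lower (median log2 change 0.74). Lgmn, legumain, went from 79.9 ± 12.2 to 229 ± 24.2 CPM (edgeR adjusted p = 4.29e-09), Ctss from 47.4 ± 12.0 to 130 ± 20.7 CPM (edgeR adjusted p = 3.57e-07) and Ctsd from 147 ± 19.4 to 279 ± 64.7 CPM (edgeR adjusted p = 4.13e-05). Ctsc rose by a log2 change of 1.07 (edgeR adjusted p = 0.000355). Of 15 tested cytokines and transcription factors known to induce metalloproteinases 9 were higher and none lower (median log2 change 1.22). Il1b rose from 0.938 ± 0.225 to 6.11 ± 3.68 CPM (edgeR adjusted p = 4.83e-07) and Tnf by a log2 change of 3.44 (edgeR adjusted p = 0.000704). The AP-1 subunits Fos and Jun rose by 2.13 (edgeR adjusted p = 0.000144) and 1.40 (edgeR adjusted p = 0.000354) on the log2 scale. In these 5 lists the named genes are those with the smallest p-values and are not typical of their list.

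Macrophage and neutrophil markers were also higher in HFD, where 13.0% of all tested genes were called higher. Markers low in chow, such as Gpnmb of the macrophage list (0.197 CPM) and Cxcr2 of the neutrophil list (0.194 CPM), may have been tested only through HFD counts. Calls of such markers give no support. Of 10 macrophage markers 9 were higher, none was at 0 in either diet, and their sum was 78.1 to 163 CPM in chow and 205.5 to 613 CPM in HFD. Their part in the Mmp12 rise was not tested. HFD 10 had 403 CPM of macrophage markers, within the range of HFD 3 to HFD 9 (382 to 613 CPM), beside its 1.17 CPM of Mmp12. Gpnmb and Trem2, genes of lipid-laden macrophages, had 9.93 and 6.47 CPM in HFD 10. They had 14.1 and 1.64 CPM in HFD 6, where Mmp12 had 32.9 CPM. In the remaining HFD libraries Gpnmb was at 51.4 to 289 CPM and Trem2 at 12.1 to 25.4 CPM. Of 5 Kupffer cell markers 4 were higher, with sums of 264 to 488 CPM in chow and 860 to 1670 CPM in HFD.

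Of 11 neutrophil markers 6 could be tested and all 6 were higher, and 1 was at 0 throughout chow. Their sum was 3.96 to 14.2 CPM in chow and 20.9 to 518.5 CPM in HFD, highest in HFD 10, the library with the highest Mmp8 and Mmp9. There Mpo, Elane and Ngp, granule genes of neutrophil precursors, were at 22.5, 10.1 and 96.2 CPM, and in HFD 6 at 0.192, 0.0685 and 8.13 CPM. HFD 1 and HFD 2 held 218 and 169 CPM of neutrophil markers beside 8.08 and 6.28 CPM of Mmp9. The part of neutrophil RNA in the Mmp8 and Mmp9 levels was not tested. Stellate cell markers had 1 of 7 higher and myofibroblast markers 3 of 6, the same collagens as above. The stellate sum was 105.5 to 237 CPM in chow, 86.4 to 312 CPM in HFD and 229 to 312 CPM in HFD 3 to HFD 10. None of 6 endothelial markers, 1 of 4 cholangiocyte, 2 of 6 lymphocyte and 0 of 1 tested fat tissue markers were higher. Without HFD 1 and HFD 2, 3 of 7 stellate, 4 of 6 myofibroblast and 2 of 6 endothelial markers were higher. In that fit 17.9% of all genes were called higher, and the cholangiocyte, lymphocyte and fat tissue counts were unchanged.

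**Figure D5:**
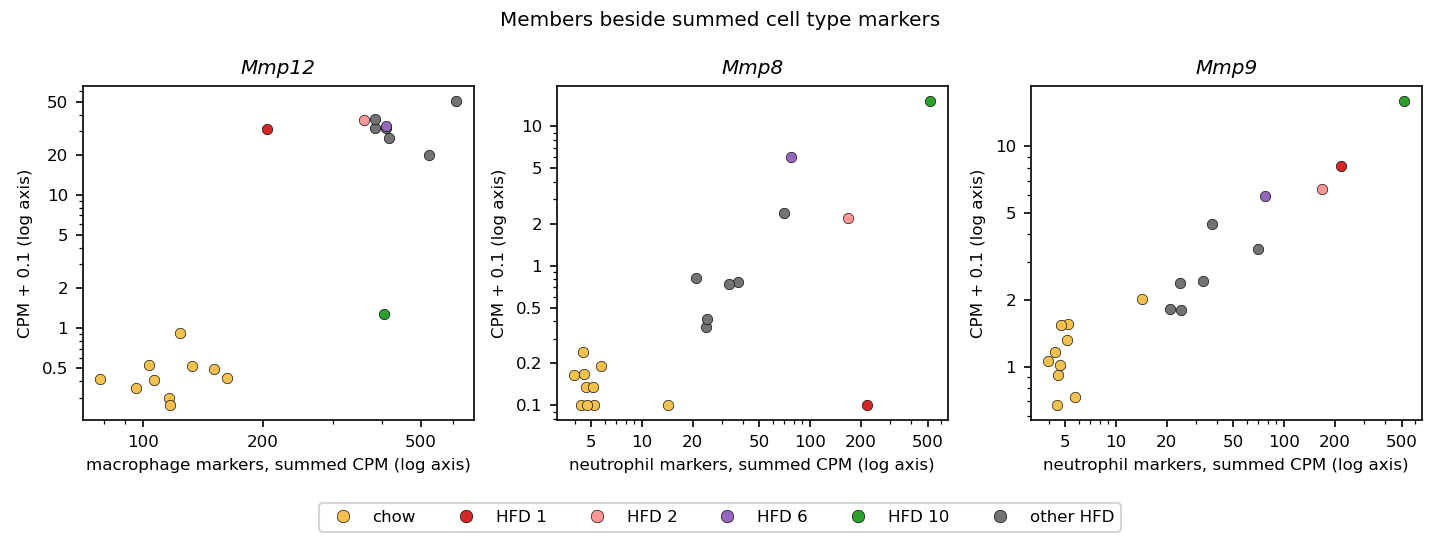
Points are libraries; the x axis sums the CPM of the marker list and the y axis gives CPM + 0.1 of the gene, both on log axes. HFD 10 has the highest neutrophil sum (518.5 CPM) with the highest Mmp8 and Mmp9, and a macrophage sum of 403 CPM with 1.17 CPM of Mmp12.

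The genes most like each member were ranked by the Pearson correlation of log2 CPM over the 10 HFD libraries. Differences in depth and the split of HFD 1 and HFD 2 from the rest are common to all genes and can enter these correlations. For Mmp9 they were S100a8 (0.953), Retnlg (0.953) and Wsb1 (0.948), the first pair being neutrophil genes, with 0.950, 0.976 and 0.945 over HFD 3 to HFD 10. For Mmp19 they were Cyp2d40, Asgr1 and Serpinf2 (0.982 to 0.984 and, over HFD 3 to HFD 10, 0.968 to 0.969). For Mmp12 they were Gsta2 (0.929), Hamp (0.854) and Colec12 (0.839), and for Mmp8 Adcy1 (0.945), Chil3 (0.943) and Cyp17a1 (0.932). For Mmp14 the values were 0.993 to 0.994 (Lrrfip2, Fam133b, Dusp11). Timp1 and Mmp2 were most like Crim1 (0.991) and Tbc1d9 (0.994), which fell to 0.865 and 0.848 over HFD 3 to HFD 10. Timp2 was most like Crot (0.974), Timp3 like Plekhg1 (0.928) and Mmp13 like Tpp2 (0.962). These values describe 10 libraries, and each was picked as the highest over many genes.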

How the data were processed

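Liver RNA of 20 libraries was analysed, 10 per diet, grouped by the sample titles. Values used were the deposited counts (whole numbers, not normalized) and the deposited FPKM (counts scaled by the column total and 1 length per gene). Per the submitters' processing notes, fastp was used and the build was mm10. Which aligner, counter, annotation and strand setting the authors used is not given here. GENCODE M21 (GRCm38) held 55141 of the 55401 IDs. Gene lengths were taken from the ratio of the deposited tables, constant over libraries for all 27216 genes with counts (relative tolerance 1e-06).

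The model was edgeR's (version 4.0.16, under R 4.3.3), with genes kept by filterByExpr at a count minimum of 10 and a total of 15, TMM scaling and the robust quasi-likelihood F test (two-sided) with diet as the only term, Benjamini-Hochberg adjustment over all tested genes, calls at an adjusted p under 0.05. The 2 members under the minimum are tested only in the alternatives. Alternatives were DESeq2 1.42.0, limma 3.58.1 (voom, and trend on log2 FPKM with 1 or 0.1 added), other scalings and filters, the replicate number as a block and leaving out libraries. Leaving out HFD 6 and 10, alone or with HFD 1 and 2, was added after seeing the data. The fit was also run on simulated counts with known changes, and the outcome is not given here. All simulated libraries shared the same mean profile apart from those changes, so the mitochondrial share of HFD 1 and HFD 2 was not reproduced. Members, lists and rules were chosen with earlier results of these data known. Named genes are all members, tested genes of both families, up to 4 genes per other list with the smallest p-values, genes overlapping members, and the 3 most like each member (mean CPM 1 or more). No pair of libraries within a diet matched within sampling noise: the closest were chow 3 with chow 5, at a chi-square per gene of 10.6, and HFD 4 with HFD 5, at 14.1 (over genes whose pair of counts summed to 50 or more). Upstream sequences are RefSeq's (GRCm38.p6). No batch labels are given.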

Additional observations from a re-analysis of the deposited data

Results flagged for a closer look

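Among 20 groups of 10 libraries (10 members in each diet) 6 had 1 library whose gap to the next was above 0.466 of the group's range. For normally distributed values chance flags about 1 in 20 groups. CPM values were not transformed and can be skewed, which raises that rate, and the groups share libraries. In HFD the flags were Mmp8 at 15.04 CPM in HFD 10 (next library 5.89 CPM), Mmp9 at 15.95 CPM in HFD 10 (next 8.08 CPM), Mmp13 at 3.12 CPM in HFD 6 (next 1.17 CPM) and Mmp14 at 512 CPM in HFD 1 (next 262 CPM). In chow they were Mmp12 at 0.816 CPM (next 0.426 CPM) and Mmp13 at 0.71 CPM (next 0.319 CPM), both in chow 4. The counts behind the chow values were 46 of Mmp12 and 40 of Mmp13.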

How the results depend on the processing

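With all libraries 2911 genes and 5 members were called, the members all higher, and no member was called lower in any setting run (edgeR; Timp3 and Mmp19 had unadjusted p-values of 0.362 and 0.265). DESeq2 gave 3878 genes (2554 of 14542 higher) and 6 members, Mmp2 being added. The call of Mmp12 held in every setting, with log2 changes of 5.99 to 6.58 outside the FPKM fits and 2.06 and 4.24 there. Library totals alone gave 600 genes (84.5% of them higher, against 64.8%, with 48.7% under limma voom and 76.7% with no filter), 3 members and 1 of the other family genes. The FPKM fits, in which HFD 1 and HFD 2 are scaled by their mitochondrial counts and the median log2 change of all genes was −0.14 and −0.39, gave 717 and 498 genes, 1 member each and 1 other family gene each. Limma voom, the filter of 1 CPM in 10 libraries and leaving out HFD 8 each gave 1 other family gene, and no filter gave 5, against 2. With HFD 1 and HFD 2 left out 8 members were called, and with HFD 6 and HFD 10 left out as well 8 members among 4578 genes. In the latter fit 2607 of 15013 tested genes were called higher, and Mmp19 turned to a log2 change of 0.089 (edgeR adjusted p = 0.476). In both fits Mmp8 and Timp1 passed the minimum through HFD counts and had to be higher to be tested, so neither 8 gives support. The cause of the differences between settings was not tested. Leaving out 1 library at a time gave 3 to 7 called members, 2424 to 3330 genes and 1 to 2 other family genes. Mmp8 could be tested in 7 of these 20 fits, through its HFD counts, and was called in each. It is among the 7 members called without HFD 1. Same-numbered libraries correlated by −0.11 to 0.13 in their deviations, and 1 of 10 HFD libraries correlated best with its own number. These values show no pairing by number, but with HFD 1 and HFD 2 standing apart they cannot exclude it. The replicate block gave 1574 genes, 2 members (Mmp12 and Mmp9) and 1 other family gene. In it Mmp14, Timp2 and Mmp13 were not called (edgeR adjusted p = 0.052, 0.0737 and 0.227). HFD 1 and HFD 2 limit what can be said of low genes there.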

Other observations

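Low counts in the deposited table were mostly even: 72.4% to 89.6% of the values from 1 to 50 in each library, and 143 of the 188 member values above 0. The cause was not tested, and the floors given for counts of 0 treat counts as independent. Transcripts of the members shared no exact run longer than 33 bases with those of any other gene of both families (Mmp12 with Mmp16); Mmp8 and Mmp13 shared at most 20 bases with Mmp27. Mmp12 shares 157 exon bases with Mmp1b on the other strand, which had 0 counts in all libraries.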
